A study of Mus musculus with 96 samples.

Results

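Toll-like receptors with the co-receptor Cd14 and the adaptor Myd88 are described here across 3 brain regions of mice after controlled cortical impact. The set was taken by gene symbol from both count tables and holds 10 of the 32594 genes listed: the 8 receptors Tlr1, Tlr2, Tlr3, Tlr4, Tlr6, Tlr7, Tlr9 and Tlr13, with Cd14 and Myd88. All 10 were found in both tables. The tables list 4 further receptors of the family, Tlr5, Tlr8, Tlr11 and Tlr12, which appear with the rest of the pathway.

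Toll-like receptors are pattern recognition receptors of the innate immune system that bind microbial molecules and molecules released from damaged tissue. Tlr1, Tlr2, Tlr4 and Tlr6 sit in the plasma membrane, while Tlr3, Tlr7, Tlr9 and Tlr13 signal from endosomes and recognise nucleic acids. All of these receptors except Tlr3 signal through Myd88 towards NF-kB, Tlr3 signals through Ticam1, Tlr4 uses both adaptors, and in the brain microglia are the best known site of their expression.

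The study asked how an angiotensin receptor blocker changes the transcriptome after traumatic brain injury (TBI), and bulk mRNA sequencing was done on 96 libraries, 4 in each of 24 groups. Adult male C57BL/6 mice received a controlled cortical impact, a blow of a piston to the uncovered brain surface, or a sham injury that consisted of anaesthesia and a scalp incision without a craniectomy, so injury and the opening of the skull cannot be told apart. Candesartan (CD), which blocks the angiotensin AT1 receptor, or its vehicle (VH) was first given at 6 h. The ipsilateral hippocampus, thalamus and hypothalamus were taken after saline perfusion at 2 times, 3 and 29 dpi (days post-injury). Each region at each time thus has 2 sham groups, Sham + VH and Sham + CD, and 2 injured groups, TBI + VH and TBI + CD. The mice of the 3 dpi cohort were injected again at 24 and 48 h, while those of the 29 dpi cohort carried an osmotic pump from 24 h on, so the route of the drug changes with the time point. The RNA samples of the highest quality were chosen for sequencing within each group. The labels give the libraries of a group only a number, so the p-values below measure the spread between these libraries.

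Library totals ran from 6663629 to 38589791 counts with a median of 24710000, and 7 of the libraries, 5 of them in the hippocampus at 29 dpi, were shallow, with totals below 15 M. The labelled regions carried their own markers: the summed level of 5 hippocampal markers was 300.7 to 692.7 on the counts-per-million scale (CPM, counts scaled to library size) in hippocampal libraries and at most 179.2 CPM elsewhere, 5 thalamic markers reached 904.9 to 2219 CPM in the thalamus and at most 229 CPM elsewhere, and 6 hypothalamic markers reached 406.9 to 881.5 CPM in the hypothalamus and at most 244 CPM elsewhere. Markers of the choroid plexus, the epithelium that makes cerebrospinal fluid, separated libraries of the same group. Their summed level in the hippocampus at 3 dpi was 7031, 4571, 216 and 4848 CPM in Sham + VH replicates 1 to 4, against 24.4 to 176 CPM in TBI + VH and 65.2 to 125 CPM in Sham + CD, and TBI + CD held 2772 CPM in replicate 1 and 22.9 to 171 CPM in the others. The comparisons of TBI + VH and TBI + CD with Sham + VH in the hippocampus at 3 dpi, the differences between regions and times and the pathway counts are therefore also given without the libraries above 1000 CPM. Those of candesartan within sham or within injury are given with all libraries.

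By the GENCODE annotation of the mm10 build, Tlr1 (chr5:64924679-64933563) and Tlr6 (chr5:64952031-64960097) lie 18467 bases apart on the minus strand. They are close paralogs, and reads that fit both could have been split or lost in the authors' counting, so their levels are uncertain. Tlr2 (chr3:83836272-83841767), Tlr3 (chr8:45395665-45411080), Tlr7 (chrX:167304929-167330558) and Myd88 (chr9:119335934-119341411) are also on the minus strand. Tlr4 (chr4:66827584-66930284), Tlr9 (chr9:106222598-106226883) and Tlr13 (chrX:106143204-106160493) are on the plus strand. Tlr3 is overlapped by the antisense gene Gm45542 and Myd88 by Acaa1a and Slc22a14, and since the sources used here do not state whether strand was used in counting, reads of these genes may not be fully separated. Counts were taken over whole genes, so exons and untranslated regions are not resolved.

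To show the sequence upstream of receptors that moved together, RefSeq promoter windows (GRCm38.p6, 250 bases before to 50 after an annotated start) were searched on both strands for the letters GAGGAA, the core bound by the myeloid factor PU.1, for GAAANNGAA, an interferon regulatory factor motif, and for the NF-kB consensus. Of the 10 genes 7 matched a window. Tlr4, Tlr7 and Cd14 had no entry. The 4 receptors below are those with a PU.1 or NF-kB match in the part of the window upstream of the annotated transcripts, and the matched letters are in capitals in the sense direction of the gene: Tlr1 at chr5:64933564-64933808 (minus strand), Tlr2 at chr3:83841768-83841858 (minus strand), Tlr9 at chr9:106222348-106222597 (plus strand) and Tlr13 at chrX:106143025-106143203 (plus strand).
Tlr1: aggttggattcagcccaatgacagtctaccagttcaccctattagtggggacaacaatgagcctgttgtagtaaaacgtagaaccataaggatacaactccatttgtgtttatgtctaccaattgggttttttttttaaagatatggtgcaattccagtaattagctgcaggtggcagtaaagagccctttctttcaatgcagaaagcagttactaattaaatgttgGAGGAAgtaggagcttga
Tlr2: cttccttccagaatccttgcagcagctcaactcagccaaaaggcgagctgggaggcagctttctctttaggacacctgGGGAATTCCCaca
Tlr9: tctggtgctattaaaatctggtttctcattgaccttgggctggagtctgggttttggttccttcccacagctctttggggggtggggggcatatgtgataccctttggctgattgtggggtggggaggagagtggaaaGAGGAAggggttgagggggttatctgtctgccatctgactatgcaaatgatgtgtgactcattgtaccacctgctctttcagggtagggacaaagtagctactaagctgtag
Tlr13: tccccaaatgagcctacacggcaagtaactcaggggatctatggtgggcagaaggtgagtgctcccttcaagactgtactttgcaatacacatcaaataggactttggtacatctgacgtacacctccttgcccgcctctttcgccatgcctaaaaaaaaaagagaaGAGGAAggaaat

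The capitals are GAGGAA in Tlr1, Tlr9 and Tlr13 and the NF-kB consensus in Tlr2, which reads as a match on both strands. GAGGAA stood 23 to 18 bases before the start of Tlr1, 112 to 107 before that of Tlr9 and 83 to 78 before that of Tlr13, and Tlr9 had another on the opposite strand just after its start. The NF-kB match of Tlr2 lay 172 to 163 bases before the RefSeq start. Tlr3 had an NF-kB match, Tlr6 had 2 overlapping GAAANNGAA matches in 1 of its windows and Myd88 had 1 such match. Of all 32851 windows of 300 bases, 28.3% held GAGGAA, 8.56% held GAAANNGAA and 5.8% held the NF-kB consensus, so these matches are a description of letters and not of bound sites.

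In the hippocampus at 3 dpi, 9 of the 10 genes rose in TBI + VH over Sham + VH, by a factor of 1.42 for Myd88 to 5.81 for Tlr2 in the group means. Tlr3 was the exception. Calls come from edgeR's quasi-likelihood test and need a false discovery rate (FDR, Benjamini-Hochberg over all genes tested) below 0.05 together with a log2 fold change beyond 0.32 in either direction. Shares of all genes called are those of this edgeR fit unless another setting is named. Of all 16756 genes tested here 10.7% were called and 8.99% were called and higher. The median log2 fold change was 1.72 over the 10 genes and -0.01 over all genes tested. In all 10 genes every TBI + VH library lay above every Sham + VH library, which held for 10.3% of all genes tested. In bulk tissue more cells of a type and more RNA per cell cannot be told apart.

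Tlr2 recognises lipoproteins as a dimer with Tlr1 or Tlr6 and showed the highest fold change of the set. It stood at 1.10, 1.33, 0.701 and 1.2 CPM in Sham + VH and at 7.97, 3.15, 8.76 and 5.29 CPM in TBI + VH. The log2 fold change was 2.58 (SE 0.33, FDR = 2.8e-05), and the lowest injured library lay well above the highest sham library.

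Its partner Tlr1 was at 0.592, 0.710, 0.438 and 0.542 CPM in Sham + VH and at 3.32, 1.44, 3.01 and 3.16 CPM in TBI + VH. The groups did not overlap, although replicate 2 of TBI + VH lay well below the other injured libraries (log2 fold change 2.30, SE 0.33, FDR = 8.4e-05). Tlr6, the other partner, was the least abundant gene of the set, with 0.507, 0.444, 0.394 and 0.194 CPM in Sham + VH and 1.16, 0.534, 1.52 and 1.10 CPM in TBI + VH. Replicate 2 of TBI + VH lay just above the highest sham library, and the log2 fold change was 1.55 (SE 0.33, FDR = 0.0037).

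Tlr4 is the receptor for lipopolysaccharide, which Cd14 binds and passes on to it, and Cd14 also serves other receptors of the family. Tlr4 was at 0.930, 0.754, 0.832 and 1.2 CPM in Sham + VH and at 2.67, 2.30, 2.45 and 2.29 CPM in TBI + VH. The injured libraries were close to each other and all above the sham range (log2 fold change 1.41, SE 0.21, FDR = 0.00012).

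Cd14 had the smallest FDR of the 10 genes. It was at 1.86, 1.55, 1.62 and 1.36 CPM in Sham + VH and at 6.98, 3.90, 6.42 and 5.56 CPM in TBI + VH, with no overlap. Its log2 fold change was 1.88 (SE 0.22, FDR = 1.2e-05).

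Among the endosomal receptors, Tlr7, which binds single-stranded RNA, was at 1.99, 1.95, 3.02 and 2.44 CPM in Sham + VH and at 10.6, 5.93, 11.1 and 8.42 CPM in TBI + VH. All injured libraries were above the sham libraries (log2 fold change 1.98, SE 0.25, FDR = 2.3e-05). Tlr13, a receptor for bacterial ribosomal RNA that mice have and humans lack, was at 1.48, 1.55, 1.97 and 1.90 CPM in Sham + VH and at 9.74, 3.37, 11.2 and 8.00 CPM in TBI + VH. The injured libraries spread over a wide range but did not reach the sham libraries (log2 fold change 2.27, SE 0.37, FDR = 0.00029).

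Tlr9, which binds unmethylated CpG DNA, was at 0.719, 1.29, 0.613 and 0.697 CPM in Sham + VH and at 2.41, 1.39, 3.34 and 1.87 CPM in TBI + VH. The lowest injured library exceeded the highest sham library by a small margin (log2 fold change 1.49, SE 0.28, FDR = 0.0013). Tlr3, which binds double-stranded RNA, was not called. It was at 14.84, 15.53, 16.65 and 14.75 CPM in Sham + VH and at 18.1, 16.9, 17.4 and 18.2 CPM in TBI + VH, a log2 difference of 0.23 (SE 0.12, FDR = 0.25) without overlap between the groups.

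Myd88 was at 6.51, 6.43, 6.35 and 6.93 CPM in Sham + VH and at 11.1, 7.53, 10.3 and 8.19 CPM in TBI + VH. The groups did not overlap, and the log2 fold change of 0.54 (SE 0.12, FDR = 0.005) was the smallest among the genes that were called. TBI + VH replicate 2 had the lowest injured level for 9 of the 10 genes, all except Tlr4, and it also had the lowest summed microglia and macrophage markers of its group.

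**Figure D1:**
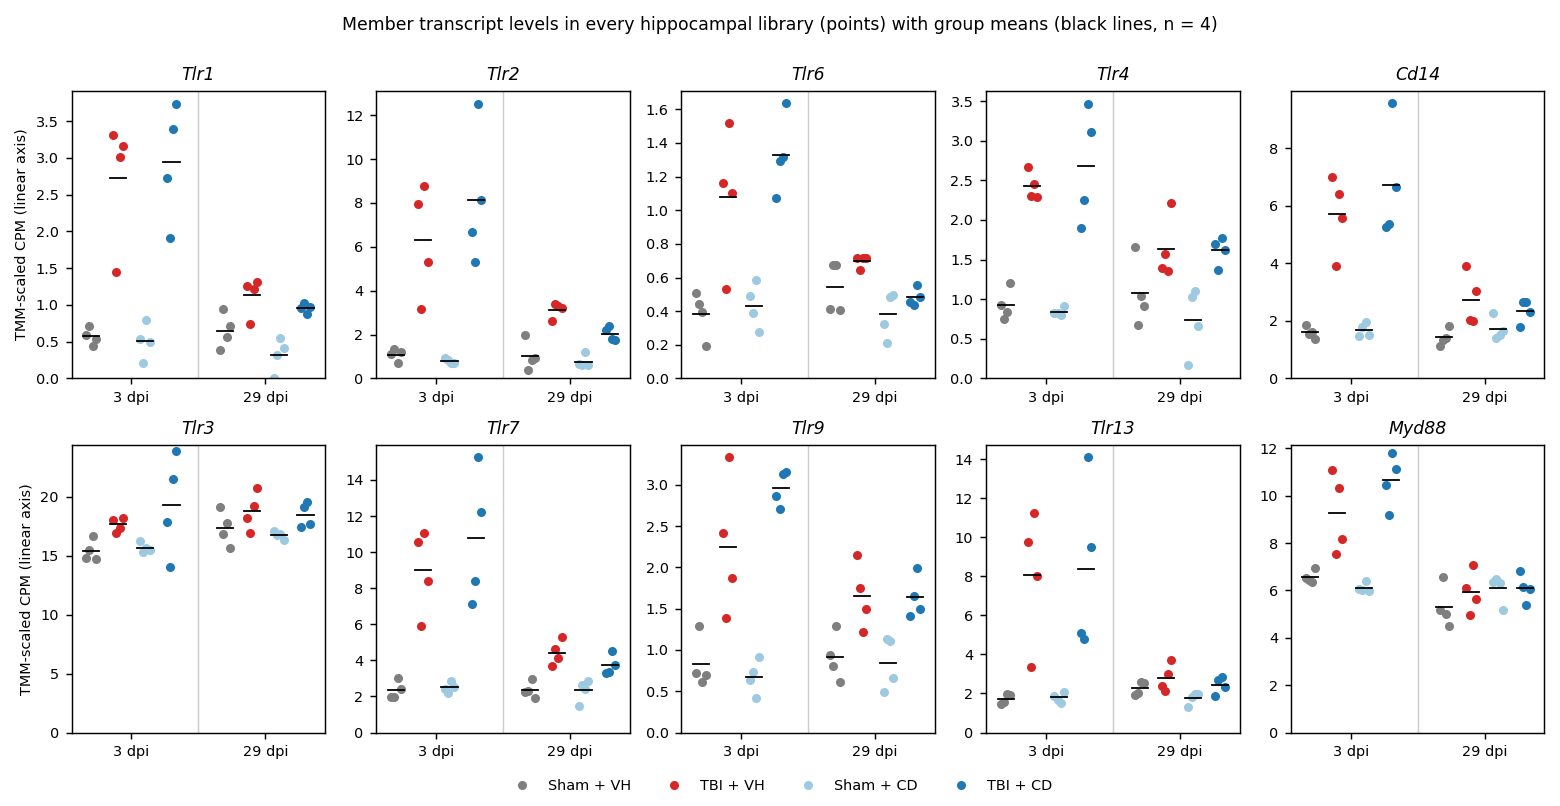
Level of each gene in CPM with TMM scaling (vertical axis, linear, starting at 0) in every hippocampal library at 3 and 29 dpi, with points for libraries and black lines for means of 4. At 3 dpi the red TBI + VH points lie above the grey Sham + VH points in all 10 panels, and Tlr2 spans 3.15 to 8.76 CPM after injury against 0.701 to 1.33 CPM in Sham + VH.

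Levels can be compared between genes only per length, so CPM was divided by the exon length in kb. In Sham + VH hippocampus at 3 dpi the order by CPM per kb was Tlr3 at 2.96 ± 0.17 (SD, n = 4), Myd88 at 2.54 ± 0.10, Cd14 at 0.922 ± 0.121, Tlr7 at 0.576 ± 0.122, Tlr13 at 0.401 ± 0.057, Tlr2 at 0.359 ± 0.090, Tlr9 at 0.238 ± 0.089, Tlr1 at 0.171 ± 0.034, Tlr4 at 0.167 ± 0.035 and Tlr6 at 0.103 ± 0.037. Tlr13 and Tlr2, Tlr9 and Tlr1, and Tlr1 and Tlr4 differed by less than their spread. In TBI + VH the first 3 genes drew level, with Myd88 at 3.60 ± 0.66, Tlr3 at 3.39 ± 0.12 and Cd14 at 3.30 ± 0.77 CPM per kb. They were followed by Tlr7 at 2.202 ± 0.573, Tlr2 at 2.09 ± 0.85 and Tlr13 at 1.88 ± 0.79 CPM per kb, which also differed by less than their spread. Tlr1, Tlr9, Tlr4 and Tlr6 remained under 1 CPM per kb.

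Markers of myeloid cells moved with these genes. The summed level of 8 microglia markers was 342 to 366 CPM in Sham + VH and 679.5 to 1022 CPM in TBI + VH at 3 dpi, with 8 of 8 called higher and a median log2 fold change of 1.08, among them Cx3cr1, Csf1r and Fcrls. The summed level of 8 macrophage and monocyte markers was 11 to 18.5 CPM in Sham + VH and 40.1 to 146.7 CPM in TBI + VH. Of its 7 markers tested 4 were called higher, including Lyz2 (log2 fold change 3.68), while the monocyte marker Ly6c2 was not (0.70, FDR = 0.29). The monocyte marker Ccr2 had at most 4 counts in a Sham + VH library and could pass the count filter only through injured libraries. The count of called markers of this list therefore supports nothing on its own.

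Other cell types were mixed. The neutrophil markers summed to 5.87 to 7.05 CPM in Sham + VH and 16.9 to 25.8 CPM in TBI + VH, but Csf3r, which microglia also express, was the 1 marker of that list that was called, and S100a8 was not (log2 fold change -0.06). Lymphocyte markers summed to at most 1.09 CPM in any hippocampal library. Astrocyte markers summed to 4008 to 4880 CPM in Sham + VH and 7526 to 9559 CPM in TBI + VH. How much each cell type contributes to the difference of any receptor was not tested.

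**Figure D2:**
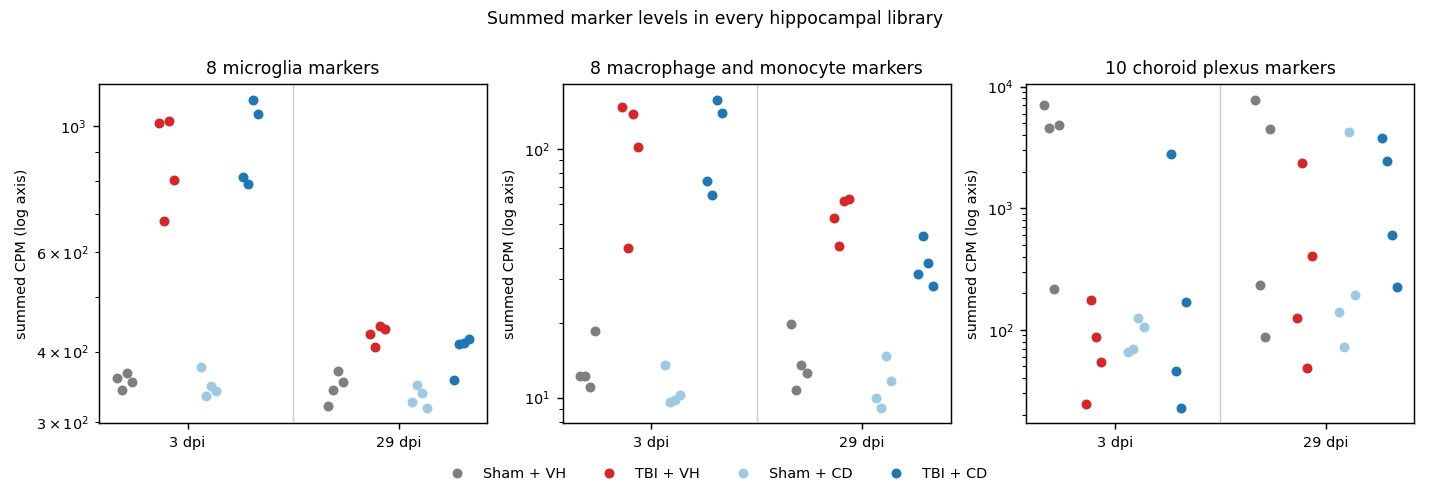
Summed CPM (vertical axis, logarithmic) of 8 microglia, 8 macrophage and monocyte and 10 choroid plexus markers in each hippocampal library at 3 and 29 dpi, with points coloured by group. The microglia sum rises from 342 to 366 CPM in Sham + VH to 679.5 to 1022 CPM in TBI + VH at 3 dpi, while the choroid plexus sum is high in 3 of the 4 Sham + VH libraries.

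The 10 genes were also set against the microglia markers. For each library the mean log2 CPM of the 8 microglia markers was subtracted from the log2 CPM of the gene (prior count 2), as a description with no test. Over Sham + VH and TBI + VH at 3 dpi the microglia mean itself went from 5.13 ± 0.04 to 6.30 ± 0.26 (SD, n = 4). Tlr2 went from -4.95 ± 0.41 to -3.73 ± 0.41, Tlr1 from -5.77 ± 0.29 to -4.88 ± 0.36, Tlr7 from -3.87 ± 0.26 to -3.16 ± 0.16 and Cd14 from -4.40 ± 0.17 to -3.80 ± 0.13. In these 4 genes the injured libraries did not overlap with the sham libraries, so on this scale they differed by more than the markers did, beyond the spread between libraries. The share of all genes without overlap on this scale was not computed. Whether such separations, here and below, are unusual among all genes was therefore not tested.

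Tlr13 went from -4.29 ± 0.18 to -3.40 ± 0.53, with 1 injured library inside the sham range. Tlr4 (-5.14 ± 0.26 and -4.98 ± 0.18), Tlr6 (-6.29 ± 0.49 and -6.17 ± 0.37) and Tlr9 (-5.32 ± 0.48 and -5.15 ± 0.30) overlapped between the groups. Tlr3 was lower on this scale after injury, from -1.18 ± 0.08 to -2.15 ± 0.24, and so was Myd88, from -2.40 ± 0.07 to -3.09 ± 0.07, both without overlap. A gene whose CPM does not change falls on this scale when the microglia mean rises. In CPM the means of both genes were higher in TBI + VH, by factors of 1.144 and 1.416. Over all 24 group means the highest of Tlr3 and of Myd88 was 1.712 and 2.002 times the lowest, against 4.05 times for Tlr4 and 10.6 times for Tlr2.

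**Figure D3:**
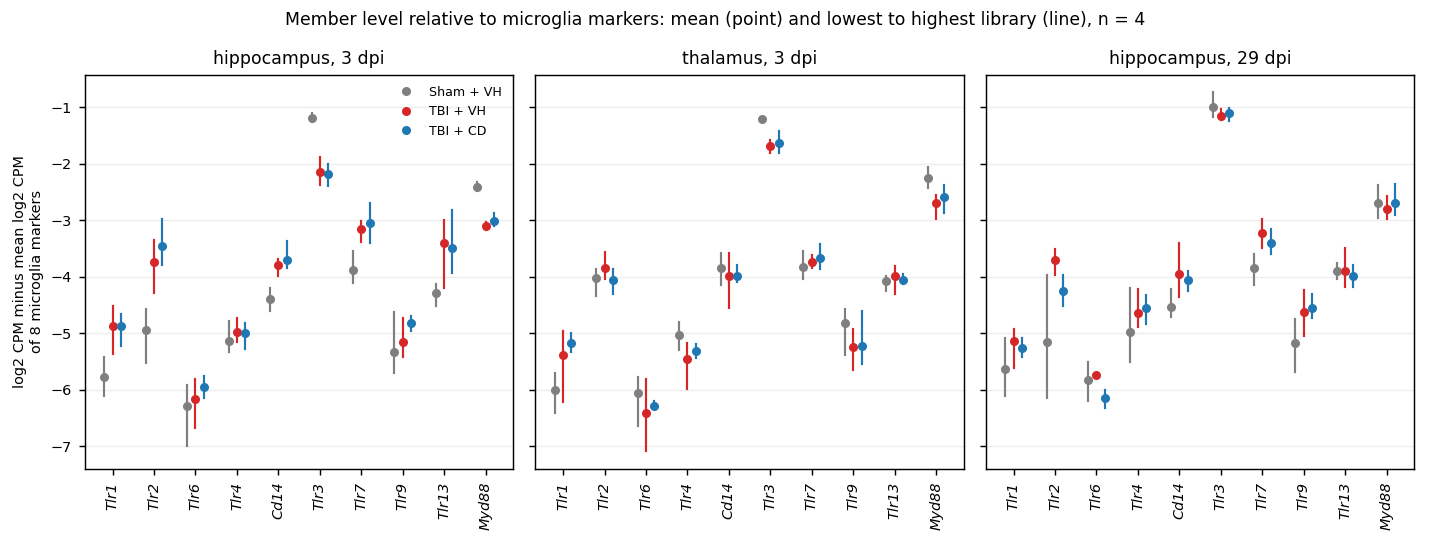
Log2 CPM of each gene minus the mean log2 CPM of 8 microglia markers (vertical axis) in the hippocampus and thalamus at 3 dpi and the hippocampus at 29 dpi. Points are means of 4 libraries and lines run from the lowest to the highest library. In the hippocampus at 3 dpi Tlr2 lies higher after injury (-3.73 against -4.95 in Sham + VH), Tlr3 lies lower (-2.15 against -1.18), and Tlr4 overlaps.

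The choroid plexus markers moved against the injury, with 10 of 10 called lower in TBI + VH and a median log2 fold change of -5.36. With their mean log2 CPM as a covariate 4 of the 10 genes were called, Tlr1 (log2 fold change 2.27), Tlr2 (2.26), Tlr7 (1.34) and Cd14 (1.46), against 3.58% of all genes. Tlr4 (1.11, FDR = 0.051), Tlr6 (1.30, FDR = 0.18), Tlr9 (1.53, FDR = 0.053), Tlr13 (1.51, FDR = 0.10) and Myd88 (0.48, FDR = 0.19) were no longer called. Another 2 settings were chosen after seeing the data. Without the libraries above 1000 CPM of choroid plexus markers, which leaves 1 Sham + VH library whose spread is assumed to be that of the other groups, 5 genes were called, Tlr1 (2.68), Tlr2 (3.21), Tlr4 (1.58), Tlr7 (1.62) and Cd14 (1.86), against 3.09% of all genes. In that fit Tlr6 (1.51, FDR = 0.20), Tlr9 (1.93, FDR = 0.058), Tlr13 (2.09, FDR = 0.11) and Myd88 (0.59, FDR = 0.20) missed the threshold. With Sham + CD, whose 4 libraries are all low in these markers, in place of Sham + VH, the 9 genes were called again, with log2 fold changes from 0.65 for Myd88 to 3.06 for Tlr2, against 16.7% of all genes.

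In TBI + CD at 3 dpi all 10 genes were called higher than in Sham + VH, against 12.1% of all genes called and 10.3% called and higher. This comparison shares its Sham + VH libraries with the one of TBI + VH. The log2 fold changes were 2.95 for Tlr2, 2.40 for Tlr1, 2.32 for Tlr13, 2.24 for Tlr7, 2.11 for Cd14, 1.87 for Tlr9, 1.83 for Tlr6, 1.56 for Tlr4, 0.74 for Myd88 and 0.37 for Tlr3. In 9 genes no library overlapped, which held for 11.6% of all genes. Tlr3 did overlap, at 17.8, 14.1, 21.6 and 23.9 CPM in TBI + CD, and its call (SE 0.12, FDR = 0.045) was lost when replicate 1, 2 or 4 of Sham + VH, or replicate 3 or 4 of TBI + CD, was left out, with FDR up to 0.145. It was also lost with only the 8 libraries compared (FDR = 0.124) and with the choroid plexus covariate (0.29, FDR = 0.289), where the other 9 genes were called, against 7.24% of all genes. Without the libraries rich in choroid plexus markers 6 genes were called, Tlr1, Tlr2, Tlr4, Tlr7, Tlr9 and Cd14, against 5.63% of all genes. There Tlr6 (1.87, FDR = 0.072), Tlr13 (2.31, FDR = 0.057) and Myd88 (0.80, FDR = 0.057) missed the threshold with log2 fold changes close to those of all libraries, and Tlr3 was at 0.30 (FDR = 0.47). Against Sham + CD all 10 were called, against 20.1%.

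The effect of candesartan was compared within injury and within sham. TBI + CD replicate 3 held the highest level of the 10 genes in its group for 6 genes and replicate 4 for the other 4, while the lowest lay in replicate 1 for 4 genes and in replicate 2 for 6. Tlr2 was at 6.66, 5.29, 12.5 and 8.15 CPM and Tlr7 at 7.15, 8.41, 15.3 and 12.2 CPM in TBI + CD. Replicates 3 and 4 of TBI + CD also had the higher microglia sums (1114 and 1053 CPM against 815 and 790 CPM) and macrophage sums (157 and 139 CPM against 74.1 and 65.0 CPM), whose part in the levels was not tested.

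All 10 genes had a higher fitted level in TBI + CD than in TBI + VH, by 0.05 (Tlr13, SE 0.32) to 0.38 (Tlr9, SE 0.25) on the log2 scale, and the groups overlapped in each. None of the 10 passed edgeR's test, none had an unadjusted p under 0.05, and DESeq2 called 0. Of all genes 0% were called, and 732 of them (4.37%) had an unadjusted p under 0.05. The largest differences between the injury effects of the drug arms (the interaction) were 0.85 for Tlr2 (SE 0.49) and 0.67 for Tlr9 (SE 0.41). For that interaction 0 of 10 genes were called by edgeR or by DESeq2, with 0% of all genes called by edgeR. An unadjusted p under 0.05 was found for 0 of the 10, against 13.1% of all genes. DESeq2 called 1.94% of all genes for the interaction, and edgeR called 0.498% without the count filter and 0.645% with a replicate block, none of them among the 10 genes. Sham + CD differed from Sham + VH by -0.48 (Tlr2, SE 0.40) to 0.16 (Tlr6, SE 0.38) on the log2 scale. None of the 10 was called by either tool, and 0 had an unadjusted p under 0.05, against 15% of all genes. Of all genes 1.5% were called by edgeR. That share was 0% with the choroid plexus covariate, and 3 of the 4 Sham + VH libraries but none of Sham + CD were above 1000 CPM of these markers.

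At 29 dpi in the hippocampus Tlr2 and Tlr7 were still higher in TBI + VH than in Sham + VH, and these were the 2 of 10 genes that passed edgeR's test. Of all genes 0.529% were called and 0.523% were called and higher. Tlr2 was at 1.97, 0.403, 0.841 and 0.917 CPM in Sham + VH and at 2.60, 3.41, 3.28 and 3.21 CPM in TBI + VH (a log2 difference of 1.44, SE 0.31, FDR = 0.044). Tlr7 was at 2.25, 2.29, 2.97 and 1.94 CPM in Sham + VH and at 3.68, 4.61, 4.14 and 5.31 CPM in TBI + VH (a log2 difference of 0.88, SE 0.18, FDR = 0.036). In both genes and in Cd14 no library overlapped between the groups, which held for 2.44% of all genes. Cd14 stood at 1.14, 1.34, 1.40 and 1.83 CPM in Sham + VH and at 3.906, 2.027, 1.997 and 3.027 CPM in TBI + VH. Its difference of 1.01 (SE 0.24) missed the threshold (FDR = 0.072). DESeq2 called Cd14 (1.02, FDR = 0.0267) and 3 of the 10 in all, against 0.751% of all genes.

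The remaining 7 genes differed by 0.11 (Tlr3) to 0.99 (Tlr1) on the log2 scale, all towards TBI + VH, and were not called. Calls at this time rested on few libraries. The call of Tlr2 was kept in 1 of 8 fits that each left out 1 library, the one without Sham + VH replicate 1 (FDR 0.002 to 0.20 over the 8). That of Tlr7 was kept in 2 of 8, those without Sham + VH replicate 3 or TBI + VH replicate 1 (FDR 0.026 to 0.15). With Sham + CD as the sham group Tlr1 (1.59), Tlr2 (1.97) and Tlr7 (0.88) were called in TBI + VH, against 1.02% of all genes.

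Microglia markers summed to 321 to 370 CPM in Sham + VH and 407 to 444 CPM in TBI + VH at 29 dpi, and macrophage and monocyte markers to 10.8 to 19.8 and 40.7 to 62.7 CPM. Choroid plexus markers were at 7790, 235, 87.0 and 4467 CPM in Sham + VH and at 124, 2365, 48.9 and 407 CPM in TBI + VH. With the choroid plexus covariate Tlr2 was called (1.72) and Tlr7 was not (0.83, FDR = 0.0539), against 0.582% of all genes. The call of Tlr2 was lost with a replicate block (1.52, FDR = 0.0629), and both calls were lost with only the 8 libraries compared. The part of the myeloid markers in the differences was not tested. Relative to the microglia markers, Tlr2 stood at -5.15 ± 0.90 in Sham + VH and at -3.71 ± 0.19 in TBI + VH (SD, n = 4), but the groups overlapped, with a highest Sham + VH library of -3.962 and a lowest TBI + VH library of -3.975. Tlr7 stood at -3.85 ± 0.23 and -3.22 ± 0.23 without overlap, and Tlr13 at -3.89 ± 0.14 and -3.89 ± 0.32 with overlap. How many of all genes separate on this scale was not computed.

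In TBI + CD at 29 dpi 0 of 10 genes were called against Sham + VH by edgeR or DESeq2, against 0.119% and 0.267% of all genes. Of the 10 genes 5 had an unadjusted p under 0.05, against 7.4% of all genes. The log2 fold changes included 0.82 for Tlr2 (SE 0.31), 0.75 for Cd14 (SE 0.23) and 0.62 for Tlr7 (SE 0.18). Tlr2 was at 2.19, 2.37, 1.81 and 1.74 CPM in TBI + CD and every library lay below the 2.60 to 3.41 CPM of TBI + VH. Tlr6, at 0.457, 0.436, 0.558 and 0.486 CPM, also lay wholly below the 0.645 to 0.718 CPM of TBI + VH. Such a separation held for 1.49% of all genes. That of Tlr6 rests on few reads, since its median was 9 counts per library over all libraries. TBI + VH replicates 2 and 3 were also shallow, at 11.3 and 14.8 M counts. The log2 differences were -0.62 for Tlr2 (SE 0.28) and -0.54 for Tlr6 (SE 0.27).

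That comparison of TBI + CD with TBI + VH at 29 dpi called 0 of 10 genes by edgeR and by DESeq2. Of all genes edgeR called 0% and DESeq2 0.0169%. Tlr2 alone had an unadjusted p under 0.05, with an FDR of 0.88, against 5.31% of all genes with such a p. The macrophage and monocyte sum was 28.1 to 44.5 CPM in TBI + CD and 40.7 to 62.7 CPM in TBI + VH. Neither the interaction nor Sham + CD against Sham + VH gave a call among the 10 genes by either tool. Both had 0% of all genes called by edgeR, while DESeq2 called 0.0127% and 0.00844%. An unadjusted p under 0.05 was found for 0 of 10 in each, against 5.29% and 4.81% of all genes.

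In the thalamus at 3 dpi no gene of the 10 passed edgeR's test in TBI + VH, where 0.298% of all genes were called, 5 of the 10 had an unadjusted p under 0.05 against 3.84% of all genes, and DESeq2 called 0. Tlr1 was at 0.455, 0.303, 0.221 and 0.393 CPM in Sham + VH and at 1.17, 0.476, 0.958 and 1.02 CPM in TBI + VH (log2 difference 1.38, SE 0.35, FDR = 0.19). Tlr2 was at 1.95, 1.67, 1.63 and 1.14 CPM in Sham + VH and at 2.81, 2.94, 2.18 and 2.80 CPM in TBI + VH (0.75, SE 0.19, FDR = 0.18). Tlr13 showed 0.69 (SE 0.20, FDR = 0.31). In these 3 genes the groups did not overlap, which held for 1.52% of all genes. The microglia sum was 264 to 310 CPM in Sham + VH and 357.5 to 475 CPM in TBI + VH, with 6 of 8 markers called higher. With only the 8 libraries compared 3 of 16419 genes were called, so some of these marker calls are lost there. The choroid plexus sum was above 1000 CPM in Sham + VH replicates 1 and 3 (1148 and 3439 CPM) and at most 67.3 CPM in TBI + VH.

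In TBI + CD of the thalamus at 3 dpi 0 of 10 genes were called by edgeR against 0.418% of all genes, and 5 had an unadjusted p under 0.05 against 7.14%. DESeq2 called 1 of the 10, against 0.74% of all genes. Tlr1 came closest, at 0.880, 1.01, 1.28 and 0.931 CPM (log2 difference 1.58, SE 0.35, FDR = 0.072). Sham + CD, TBI + CD against TBI + VH and the interaction each had 0 of the 10 called by either tool. By edgeR 0% of all genes were called in each, and DESeq2 called 0.0709% in Sham + CD. Among them Myd88 in Sham + CD alone had an unadjusted p under 0.05 (0.23, SE 0.11), against 6.87% of all genes there. In TBI + CD against TBI + VH and the interaction that share was 2.05% and 2.3%.

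In the hypothalamus at 3 dpi Tlr6 fell below the count filter and 9 genes were tested. None was called in TBI + VH, TBI + CD, Sham + CD, TBI + CD against TBI + VH or the interaction by edgeR or DESeq2. Each of these comparisons had 0% of all genes called by edgeR, and DESeq2 called 0.0125% in TBI + CD. An unadjusted p under 0.05 was found for 3 of the 9 in TBI + VH and 4 of the 9 in TBI + CD, for 1 in TBI + CD against TBI + VH and for 0 in the others. Of all genes tested 3.4% had such a p in TBI + VH and 3.85% in TBI + CD. That share was 2.08% in TBI + CD against TBI + VH, 2.13% in Sham + CD and 2.41% in the interaction. The 3 genes in TBI + VH were Tlr1 (a log2 difference of 0.64, SE 0.23), Tlr13 (0.55, SE 0.20) and Tlr3 (0.27, SE 0.08), each with an FDR of 1. The microglia sum was 238 to 285 CPM in Sham + VH and 263 to 286 CPM in TBI + VH.

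In the thalamus at 29 dpi 1 library stood apart. TBI + CD replicate 4 held 6.67 CPM of Tlr2 against 1.52 to 2.31 CPM in the other 3 libraries, 5.001 CPM of Tlr7 against 1.67 to 2.65, 4.57 CPM of Cd14 against 1.13 to 2.42 and 20.2 CPM of Tlr3 against 12.6 to 15.2. The same library had a microglia sum of 511 CPM against 285 to 344 in the others, a macrophage sum of 58.0 against 16.2 to 20.1, an astrocyte sum of 4066 against 2882 to 3346 and a choroid plexus sum of 1459 CPM against 32 to 67.9. Their part in the receptor levels was not tested.

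None of the 10 genes was called in any of the 5 comparisons of the thalamus at 29 dpi by edgeR or DESeq2. By edgeR 0% of all genes were called in each. DESeq2 called 0.146% of all genes in TBI + CD against Sham + VH and 0.00419% in TBI + CD against TBI + VH. TBI + CD against Sham + VH had 7 of 10 at an unadjusted p under 0.05, against 4.81% of all genes, and includes the library that stood apart. TBI + CD against TBI + VH had 2 against 2.24% and the interaction 1 against 3.4%. TBI + VH and Sham + CD against Sham + VH had 0, against 2.47% and 3.18%. In TBI + CD against TBI + VH the highest log2 difference was that of Tlr6, at 1.13 (SE 0.33, FDR of 1).

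In the hypothalamus at 29 dpi the 10 genes differed between TBI + VH and Sham + VH by -0.53 (Tlr1, SE 0.37) to 0.53 (Tlr6, SE 0.30) on the log2 scale. None was called in any of the 5 comparisons by either tool and 0 had an unadjusted p under 0.05 in each. Of all genes tested 2.79% (TBI + VH) to 13.2% (Sham + CD) had such a p. By edgeR 0.00583% of all genes were called in TBI + VH and 0% in each of the other comparisons. DESeq2 called 0.00832% in TBI + VH, 0.00416% in TBI + CD and 0.0558% in Sham + CD.

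**Figure D4:**
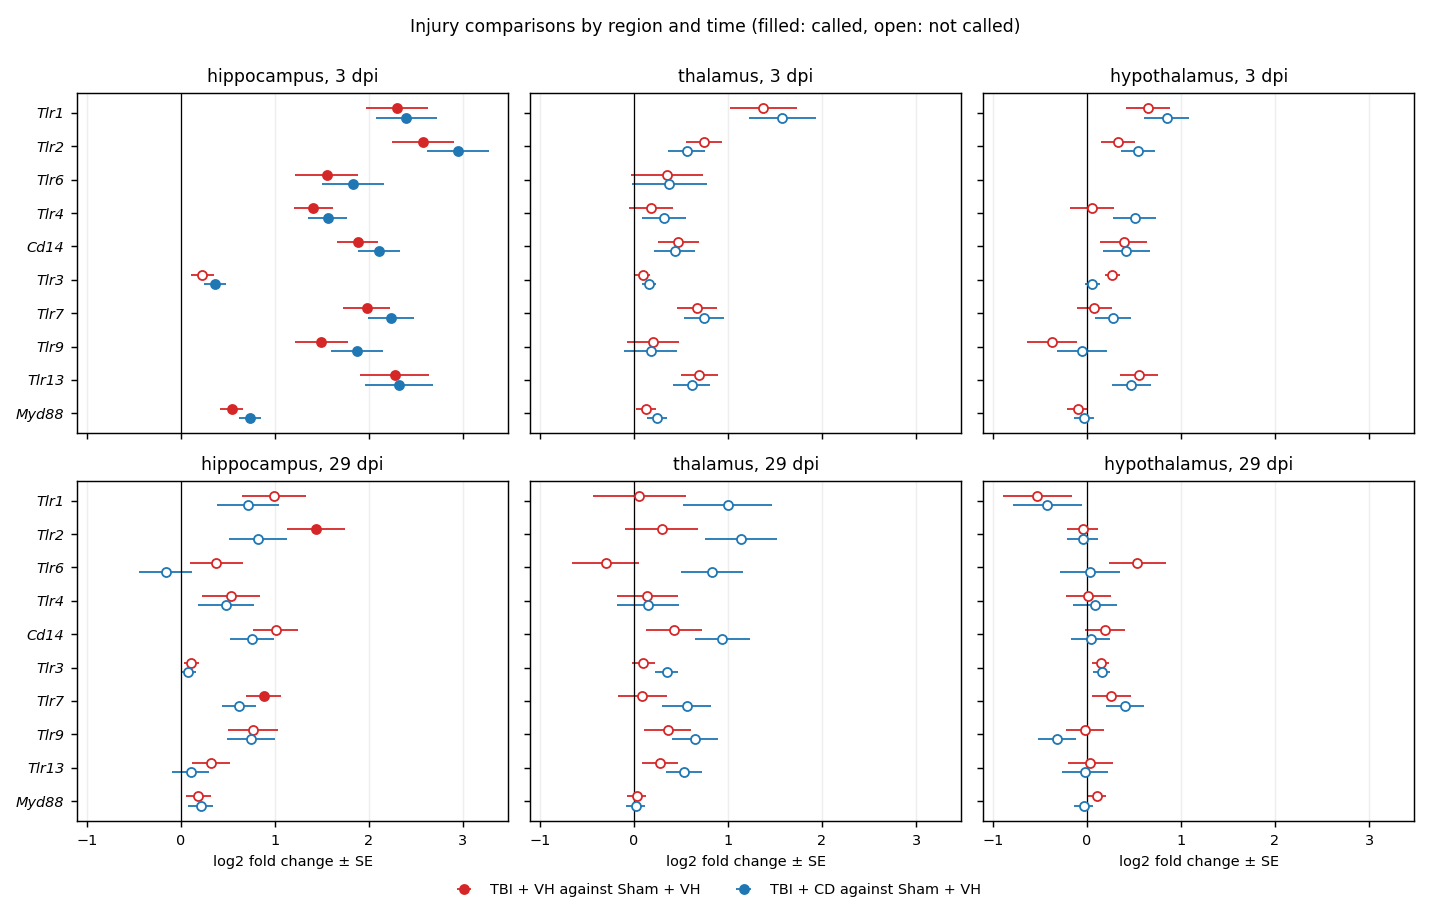
Log2 fold change over Sham + VH (horizontal axis) with its SE for each gene, in TBI + VH (red) and TBI + CD (blue), by region and time, with filled points where the gene was called and open points where it was not. The hippocampus at 3 dpi holds 9 filled red and 10 filled blue points, the hippocampus at 29 dpi holds 2 filled red points (Tlr2 and Tlr7), and the other panels hold open points.

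Whether the injury effect differed between regions was tested directly in 1 fit of the 48 libraries at 3 dpi, treating regions as independent because the labels do not say which libraries came from 1 mouse. The injury effect in TBI + VH was larger in the hippocampus than in the thalamus for 5 of 10 genes, against 4.06% of all genes that differed in either direction. These were Tlr2 by 1.80 (SE 0.36), Tlr13 by 1.55 (SE 0.40), Cd14 by 1.38 (SE 0.32), Tlr7 by 1.27 (SE 0.31) and Tlr4 by 1.204 (SE 0.31) on the log2 scale, and the call of Tlr13 (FDR = 0.014) was lost without hippocampal TBI + VH replicate 3 (FDR = 0.059). Tlr9, not called with all libraries (1.26, FDR = 0.061), was called in 4 of 16 fits that left out 1 library, without hippocampal Sham + VH or TBI + VH replicate 2 or thalamic Sham + VH or TBI + VH replicate 1 (1.393 to 1.54, FDR 0.0185 to 0.0444). Without the libraries above 1000 CPM of choroid plexus markers, which leaves 1 hippocampal and 2 thalamic Sham + VH libraries, 0 of the 10 genes were called, against 0.798% of all genes. Of the 5 genes Tlr2 (2.24, SE 0.58, FDR = 0.056), Tlr4 (1.34, SE 0.44, FDR = 0.17) and Cd14 (1.46, SE 0.48, FDR = 0.17) had differences at least as large as with all libraries, with larger SEs, while Tlr13 (1.26, SE 0.58, FDR = 0.41) and Tlr7 (0.74, SE 0.42, FDR = 0.55) had smaller ones.

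Against the hypothalamus the effect was larger in the hippocampus for 8 of 10 genes, all except Tlr3 (-0.05) and Tlr6 (1.32, FDR = 0.15), against 6.16% of all genes. The differences ran from 0.62 for Myd88 (SE 0.15) to 2.23 for Tlr2 (SE 0.35). In the libraries poor in choroid plexus markers 4 of 10 differed, Tlr2 (2.83), Tlr4 (1.49), Tlr7 (1.496) and Tlr9 (2.25), against 2.41% of all genes, while Tlr1 (1.99, FDR = 0.11), Tlr13 (1.49, FDR = 0.17), Cd14 (1.43, FDR = 0.11) and Myd88 (0.65, FDR = 0.13) were no longer called. Between 3 and 29 dpi the hippocampal injury effect differed for Tlr13 alone, by 1.94 (SE 0.44, FDR = 0.0084), against 3.19% of all genes. Tlr7 followed with 1.10 (SE 0.32, FDR = 0.053). The call of Tlr13 was lost in the libraries poor in choroid plexus markers, of which Sham + VH had 1 at 3 dpi and 2 at 29 dpi (1.74, SE 0.71, FDR = 0.47), against 0.00561% of all genes. Tlr13 was at 1.94, 2.02, 2.61 and 2.55 CPM in Sham + VH and at 2.38, 2.12, 3.00 and 3.71 CPM in TBI + VH at 29 dpi, where the groups overlapped.

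**Figure D5:**
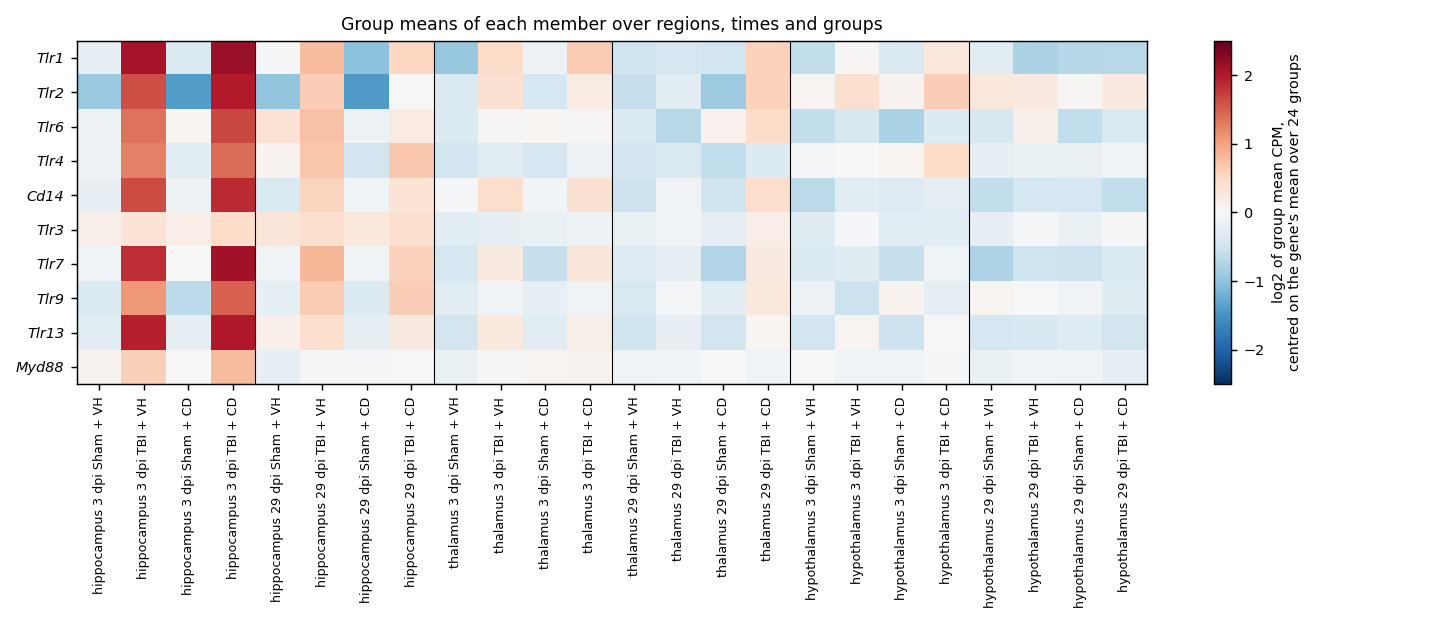
Group means of each gene (rows) in the 24 groups (columns) as colours for the log2 of the mean CPM centred on the gene's own mean over groups, with red above and blue below it. The highest mean of all 10 genes lies in the hippocampal TBI + CD column at 3 dpi, such as 8.15 CPM for Tlr2 and 19.4 CPM for Tlr3.

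The regions also differed without injury, although a large share of all genes did so. At 3 dpi in Sham + VH, Tlr3 was higher in the hippocampus than in the thalamus (log2 difference 0.42, SE 0.09), 1 of 10 genes against 40.9% of all genes called. It was also higher than in the hypothalamus (0.44, SE 0.09), where Tlr2 was lower in the hippocampus (-1.004, SE 0.26), 2 of 10 against 46.7%. Cd14 was higher in the thalamus than in the hypothalamus (0.62, SE 0.24, FDR = 0.033), 1 of 10 against 28.6%, and this call was lost in 5 of 8 fits that left out 1 library, without thalamic replicate 1 or 2 or hypothalamic replicate 2, 3 or 4, and without the count filter. It was lost as well in the libraries poor in choroid plexus markers (0.72, FDR = 0.057), where the calls of Tlr2 and Tlr3 at 3 dpi were made again, against 31.6% of all genes for hippocampus and thalamus and 37.5% for hippocampus and hypothalamus.

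At 29 dpi Tlr3 (0.52, SE 0.10), Tlr6 (0.76, SE 0.30) and Tlr13 (0.63, SE 0.22) were higher in the hippocampus than in the thalamus, 3 of 10 against 39.3% of all genes. Against the hypothalamus Tlr3 (0.49, SE 0.10), Tlr6 (0.77, SE 0.30), Tlr7 (0.69, SE 0.23) and Tlr13 (0.54, SE 0.22) were higher and Tlr2 was lower (-1.12, SE 0.32), 5 of 10 against 45%. Tlr2 was also lower in the thalamus than in the hypothalamus (-0.88, SE 0.31), 1 of 10 against 32.9%. The calls of Tlr3, and of Tlr2 between hippocampus and hypothalamus, held at both times in all 8 fits that left out 1 library. The call of Tlr6 against the thalamus was lost in 4 of 8, without hippocampal replicate 2 or 3 or thalamic replicate 1 or 4, and against the hypothalamus in 2 of 8, without hippocampal replicate 3 or hypothalamic replicate 1, and DESeq2 made neither call. That of Tlr13 was lost in 2 of 8 against the thalamus, without hippocampal replicate 3 or thalamic replicate 2, and in 4 of 8 against the hypothalamus, without hippocampal replicate 3 or 4 or hypothalamic replicate 1 or 4. Hippocampal replicate 3 was also needed for Tlr7, and thalamic replicate 4 and hypothalamic replicate 1 for Tlr2 between these regions. In the libraries poor in choroid plexus markers these calls at 29 dpi were made again, against 28.5% to 42.4% of all genes, and Tlr2 was also lower in the hippocampus than in the thalamus (-1.15, FDR = 0.0016).

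The remaining genes of the pathway were followed in TBI + VH of the hippocampus at 3 dpi, where 10.7% of all genes were called. Of the 4 other receptors 3 were tested. Tlr8, a close relative of Tlr7, rose by 2.61 on the log2 scale (SE 0.66, FDR = 0.012). It was at 0.042, 0.089, 0.044 and 0.116 CPM in Sham + VH and at 0.732, 0.107, 0.631 and 0.343 CPM in TBI + VH. With 1 to 3 counts per Sham + VH library it passed the count filter only through the injured libraries, so this call supports nothing on its own, and replicate 2 overlapped with the sham range. Tlr5, the flagellin receptor, was at -0.19 (SE 0.31) and Tlr12 at 0.51 (SE 0.23), neither called.

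Of 8 accessory proteins that fold, carry or load the receptors 3 rose and 1 fell (median 0.20). Ly86 (2.63, SE 0.22) and Cd180 (2.51, SE 0.32), which form a receptor complex related to that of Tlr4, rose together with Unc93b1 (1.70, SE 0.12), the chaperone that brings endosomal receptors to their compartment. Ly86 was at 7.86, 8.56, 8.81 and 8.91 CPM in Sham + VH and at 67.1, 31.4, 60.6 and 45.9 CPM in TBI + VH. Lbp, which hands lipopolysaccharide to Cd14, fell by 1.95 on the log2 scale (SE 0.58, FDR = 0.031). It was at 44.8, 34.6, 11.7 and 40.3 CPM in Sham + VH, high in the libraries rich in choroid plexus markers, at 3.10 to 5.24 CPM in Sham + CD and at 4.86 to 12.2 CPM in TBI + VH. The most abundant gene of the list, the folding chaperone Hsp90b1, was at -0.03 (SE 0.10).

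Of the 4 other adaptors 2 rose (median 0.51). Ticam2, which links Tlr4 to Ticam1, was at 0.338, 0.532, 1.01 and 0.697 CPM in Sham + VH and at 2.499, 1.389, 2.635 and 2.666 CPM in TBI + VH (1.88, SE 0.30). Ticam1, the adaptor of Tlr3, rose by less (0.57, SE 0.10). Tirap, which bridges Myd88 to Tlr2 and Tlr4, was at 0.46 (SE 0.20, FDR = 0.15) and Sarm1 at -0.10 (SE 0.08).

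Of 16 kinases and ubiquitin ligases below the adaptors 4 rose and the median was 0.03. Irak4, the first kinase bound by Myd88, rose by 1.52 (SE 0.22), the inhibitory Irak3 by 1.25 (SE 0.34) and Ripk1 by 0.59 (SE 0.13), while Traf3 was at -0.13 (SE 0.08). Of 9 transcription factors 4 rose (median 0.26), led by the interferon regulatory factors Irf8 (1.85, SE 0.18), Irf7 (1.47, SE 0.39) and Irf5 (1.31, SE 0.15). Rela, a subunit of NF-kB, was at 0.26 (SE 0.07), under the fold limit. Of 9 inhibitors tested 2 rose (median 0.15), the adaptor Pik3ap1 (2.47, SE 0.30) and the NF-kB inhibitor Nfkbia (0.41, SE 0.13, FDR = 0.049), and the most abundant, Tollip, was at -0.08 (SE 0.04).

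Target genes of the pathway were sparse. Of 16 listed 7 passed the count filter, and Tnf, Il1b and Il6 were among those that did not. Of the 7 tested 6 rose, led by the chemokines Ccl2 (2.75, SE 0.71), Ccl4 (2.72, SE 0.59) and Cxcl10 (2.67, SE 0.79), all at low levels. Ccl2 was at 0.085, 0.044, 0.088 and 0.155 CPM in Sham + VH and at 0.646, 0.641, 1.002 and 0.305 CPM in TBI + VH. A gene that passes the filter only through the injured libraries had to differ, so this count supports nothing on its own. The prostaglandin synthase Ptgs2 was at -0.35 (SE 0.11, FDR = 0.055). Of 6 tested genes for ligands released from damaged tissue 2 rose, the matrix proteoglycans Vcan (0.68, SE 0.13) and Bgn (0.57, SE 0.16), and Fn1 was at 0.71 (SE 0.26, FDR = 0.083).

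Fewer genes of the pathway were called in the libraries poor in choroid plexus markers, in which 1 Sham + VH library is left and 3.09% of all genes were called. These were 0 of the 3 other receptors, 2 of 8 accessory genes (Ly86 and Unc93b1), 1 of 4 adaptors (Ticam1), 1 of 16 kinases and ligases (Irak4), 2 of 9 transcription factors (Irf5 and Irf8), 1 of 10 inhibitors (Pik3ap1), 0 of 10 targets and 1 of 8 ligands (Bgn), all higher.

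In the thalamus at 3 dpi 2 of 8 accessory genes rose in TBI + VH, Ly86 (1.22, SE 0.12) and Cd180 (1.43, SE 0.27), and 1 of 9 transcription factors rose, against 0.298% of all genes called. With only the 8 libraries compared 3 of 16419 genes were called there, so few calls of that comparison hold in this setting. In the hippocampus at 29 dpi 2 of 8 accessory genes rose, among them Ly86 (0.60, SE 0.10), against 0.529% of all genes called.

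The genes whose pattern over the 24 group means was most like each receptor were found by the mean absolute difference of centred log2 CPM over 24 groups, as a description. For Tlr13 they were Ncf1 (0.08), Vav1 (0.10) and Lcp1 (0.11), and for Tlr7 Vav1 (0.11), Ncf1 (0.12) and AF251705 (0.13). For Cd14 they included Dock2 (0.11) and Cd53 (0.13). For Tlr1 they were Tyrobp (0.21), Myo1f (0.22) and Klhl6 (0.23). For Tlr2 they were Galnt15 (0.22), Tnfrsf1b (0.27) and Cd74 (0.27), for Tlr4 Serping1 (0.12), Lrrk1 (0.14) and Msn (0.15) and for Tlr9 Parp14 (0.16), Slc14a1 (0.16) and Zfp36 (0.17). Tlr3 lay nearest to Ryk, Xrcc4 and Gng12 (0.07 each) and Myd88 to Ntpcr, Inppl1 (0.07 each) and Ppp1r14b (0.08), at distances that their own small spread over groups keeps low (SD 0.25 and 0.22, against 0.78 for Tlr2). Tlr6 was left out because it missed the count filter in 1 set of libraries.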

How the data were processed

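Whole-number counts per gene were deposited in 2 tables. Per the labels, stranded TruSeq mRNA libraries were made from RNA of high quality, and per the submitters' processing notes reads were handled with bcl2fastq, HTSeq 0.9.1 and DESeq2 1.16.1 on mm10. By the study's methods MapSplice was the aligner, and the strand setting of counting is not given in the sources used here. Here the counts were fitted in edgeR 4.0.16 (R 4.3.3) with its expression filter, TMM scaling and quasi-likelihood test on the 16 libraries of each region and time, and jointly for differences between regions or times. Calls needed a Benjamini-Hochberg FDR below 0.05 with a log2 fold change beyond 0.32 in either direction, or the FDR alone for differences between effects. The SE is the fold change over the root of F. Levels are CPM with 1 TMM scaling over 96 libraries. Named genes are the 10 genes and, from each pathway list, up to 3 called genes with the largest change in TBI + VH of the hippocampus at 3 dpi and the most abundant gene, all genes of lists of 4, up to 3 markers per cell type and the 3 nearest patterns. Unc93b1 was named after its values were seen. For Cd14, 1 of the 3 nearest patterns is not reported here. The script was tested on simulated data. Alternatives were DESeq2 1.42.0, no filter, a replicate block, only the libraries compared, a choroid plexus covariate and leaving out each library. Replicate pairs differed beyond counting noise in all 144 pairs (chi-square per degree of freedom 2.64 to 48.1), so none was counted as 1 library. The genes and lists were chosen with earlier results of these data known. Median counts per library ran from 9 for Tlr6 to 339.5 for Tlr3.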

Additional observations from a re-analysis of the deposited data

Results flagged for a closer look

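In 13 of 240 sets of 4 libraries 1 library lay far from the other 3 by Dixon's criterion, and chance gives about 1 in 20. In the hippocampus at 3 dpi, Tlr1 was at 1.44 CPM in TBI + VH replicate 2 against 3.01 to 3.32 CPM in the others, and Tlr9 was at 1.29 CPM in Sham + VH replicate 2 against 0.613 to 0.719 CPM. In the hippocampus at 29 dpi, TBI + VH replicate 2 was low for Tlr1 (0.737 CPM against 1.21 to 1.31) and Tlr6 (0.645 CPM against 0.713 to 0.718). That library was shallow (11.3 M counts) and the other Tlr6 values were nearly equal, so a small difference met the criterion for Tlr6. Sham + CD at that time had Tlr2 at 1.201 CPM in replicate 3 against 0.602 to 0.653 and Myd88 at 5.17 CPM in replicate 4 against 6.33 to 6.48.

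In the thalamus at 29 dpi, TBI + CD replicate 4 was high for Tlr2 (6.67 CPM against 1.52 to 2.31) and Tlr4 (1.24 CPM against 0.591 to 0.694), Sham + VH replicate 2 was high for Tlr7 (2.61 CPM against 1.69 to 1.85), and Sham + CD replicate 1 was low for Tlr1 (0.124 CPM against 0.548 to 0.630). In the thalamus at 3 dpi Cd14 was at 2.30 CPM in Sham + CD replicate 1 against 1.54 to 1.64. In the hypothalamus Tlr2 was at 2.71 CPM in Sham + CD replicate 3 at 3 dpi against 1.97 to 2.04, and Tlr1 was at 0.257 CPM in TBI + VH replicate 1 at 29 dpi against 0.412 to 0.436.

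The injury effect of TBI + VH differed between regions or times by the test of the difference itself for 14 values on the log2 scale. Hippocampus minus thalamus at 3 dpi gave 1.80 for Tlr2, 1.204 for Tlr4, 1.27 for Tlr7, 1.55 for Tlr13 and 1.38 for Cd14. Hippocampus minus hypothalamus gave 1.64 for Tlr1, 2.23 for Tlr2, 1.34 for Tlr4, 1.88 for Tlr7, 1.85 for Tlr9, 1.70 for Tlr13, 1.47 for Cd14 and 0.62 for Myd88. In the hippocampus 3 dpi minus 29 dpi gave 1.94 for Tlr13. In the libraries poor in choroid plexus markers these differences were called for 4 genes, Tlr2, Tlr4, Tlr7 and Tlr9, between hippocampus and hypothalamus and for 0 in the other comparisons.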

How the results depend on the processing

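Of 804 values of called genes under the alternatives 731 kept direction and side of the threshold, 73 lost the call and 0 reversed. The 9 calls of TBI + VH in the hippocampus at 3 dpi held in all 8 fits that left out 1 library. That count was 4 with the choroid plexus covariate and 5 in the libraries poor in choroid plexus markers, where TBI + CD had 6. In those libraries, a setting chosen after seeing the data, the differences of the injury effect were called for 0 genes between hippocampus and thalamus, 4 between hippocampus and hypothalamus and 0 between 3 and 29 dpi, and 0 genes differed between thalamus and hypothalamus in Sham + VH at 3 dpi. The cause was not tested, and these fits also have fewer samples. DESeq2 called 1 gene in TBI + CD of the thalamus at 3 dpi (Tlr1), against 0.74% of all genes. For the time difference it called 2 (Tlr7 added), against 3.63%. At 29 dpi in the hippocampus in TBI + VH it called 3 of the 10 genes (Cd14 added) and 1 inhibitor, against 0.751%. There the count of 2 became 1 with the covariate, 0 with only the 8 libraries compared, 1 with a replicate block (Tlr2 lost) and 0 to 1 leaving out a library. It fell to 0 when replicate 2 or 4 of Sham + VH or replicate 4 of TBI + VH was left out, and the 1 gene called without TBI + VH replicate 2 or 3 was Cd14, with Tlr2 and Tlr7 both lost. Replicate numbers did not pair the libraries (correlation of same-numbered libraries -0.617 to 0.715), and the block moved no other count of these genes by over 1.5 times. Leaving out 1 library gave 1 to 3 calls for the time difference (3 without TBI + VH replicate 2 at 3 dpi, with Tlr6 and Tlr7 added, 2 without Sham + VH replicate 3 at 3 dpi or TBI + VH replicate 4 at 29 dpi). Between regions in Sham + VH at 3 dpi it gave 1 to 2 for hippocampus and thalamus (2 without thalamic replicate 4) and 0 to 1 for thalamus and hypothalamus, which had 0 without the count filter. At 29 dpi it gave 1 to 4 for hippocampus and thalamus (Tlr4 added without hippocampal replicate 2 or thalamic replicate 3), 2 to 5 for hippocampus and hypothalamus and 0 to 1 for thalamus and hypothalamus. The shallowest library, hippocampal at 29 dpi, held 6663629 counts, and the effect of depth on the calls was not tested.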
